A study of Homo sapiens with 8 samples.

Results

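The transcriptomes of stem-like spheres labelled as the ovarian cancer line COV318 were compared between cells overexpressing MGP (COV318-MGP OCSC) and control cells (COV318-CTR OCSC). These are 2 of the 8 RNA-seq libraries of the study, 1 for each side, and every gene of the count table was taken. COV318 is an established line from ascites. Both populations had been infected with lentivirus made in HEK293T cells and selected with puromycin, the control with an empty vector (EX-NEG-Lv122) and the other with a vector carrying the human MGP cDNA (EX-Z9471-Lv122). OCSC, for ovarian cancer stem cells, were grown as non-adherent spheres in medium with B27, EGF and FGF2, and the bulk libraries of the same populations came from adherent cells in serum. All 4 COV318 libraries were from passage 18. The remaining 4 libraries were from OVCAR3, another established ovarian cancer line, with MGP knocked out (OVCAR3-MGPKO) or as control.

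MGP, matrix Gla protein, is a small secreted protein whose glutamate residues are carboxylated with the help of vitamin K. It is best known for keeping cartilage and arteries free of mineral and for binding bone morphogenetic proteins in the extracellular matrix. Spheres are used to enrich for tumor cells able to survive without attachment and to renew themselves, a state often linked to developmental pathways, matrix contacts and metabolism. The comparison asked which genes other than MGP differ between sphere cells with and without the transgene.

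MGP, at 12:14880864-14885854 of GRCh38, had 28694 counts in COV318-MGP OCSC and 0 in COV318-CTR OCSC, and was at least 9214-fold higher against the floor of 3 counts for a library at 0. In the bulk libraries it had 40393 counts and 1 count, so the transgene part of the labels held in both cultures. The counts do not separate the transgene from the resident gene. The total count on genes was 13259037 in COV318-MGP OCSC and 12294591 in COV318-CTR OCSC, within a series range of 12294591 to 37393919. With 1 library a side there is no replicate check and no p-value. The intervals given are exact 95% intervals of the ratio of 2 counts and cover counting error only.

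The labelled cell type was first checked against its markers. Of 10 ovarian carcinoma markers, 9 were called lower in COV318-MGP OCSC and their summed level was 681 normalized counts against 23195 in the control spheres. PAX8, a transcription factor of the Müllerian lineage, had 0 counts in COV318-MGP OCSC and 3342 in COV318-CTR OCSC, and 0 and 6778 counts in the bulk pair. SOX17 and WFDC2 were also at 0. Among 10 epithelial markers 8 were called lower, KRT7, KRT19, CLDN3 and ESRP1 were at 0 counts, and KRT8 was called higher (983 against 106 counts). The epithelial markers summed to 8495 against 9368 normalized counts, most of it KRT18 (4810 against 2396 counts). In the bulk pair they summed to 2003 against 42181. There KRT8 (556 against 1197 counts) and KRT18 (2573 against 36058) were called lower. In spheres MECOM (387 against 6746 counts) and EMX2 (69 against 498) remained above the floor. Several defining markers of the tissue of origin, PAX8 and SOX17 among them, were thus at 0 in COV318-MGP spheres and present in the control spheres.

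The COV318-MGP libraries also stood apart as a whole. Across genes, Pearson's r of log2 normalized counts between the MGP and control spheres was 0.747, whereas it was 0.801 to 0.803 between COV318-CTR OCSC and the OVCAR3 OCSC libraries. The MGP spheres and MGP bulk cells gave 0.971, and the OVCAR3 spheres with and without MGP gave 0.979. These values describe genes measured in single libraries. Genes of 1 library share its depth and are not replicates.

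Markers of other cells were counted in the same way. Of 7 neural markers counted here 5 were called higher, summing to 3096 normalized counts against 391, with the neurofilament genes NEFL at 857 against 0 counts and NEFM at 490 against 0. Of 7 markers of the HEK293 lineage, the packaging cells, 5 were called higher (NEFL, NEFM, INA, PAX2 and LIN28B) and DPPA4 was called lower. NEFL, NEFM and INA are in the neural list too, so these 2 counts largely rest on shared genes. The sum of the HEK293 markers was 4568 against 6475 normalized counts, with DPPA4 alone giving 5371 of the control value. IRS4, an insulin receptor substrate known for its abundance in HEK293 cells, had 5964 counts in COV318-MGP OCSC and 4 in COV318-CTR OCSC. In the bulk pair IRS4 had 32351 against 0 counts. Fibroblast markers summed to 2067 against 789 with 4 of 9 called higher, mesothelial markers to 296 against 6347 with 5 of 8 called lower, endothelial markers to 110 against 1302, and immune markers to 109 against 40.1. In the bulk pair the order of the fibroblast sums was reversed, at 1433 against 6006. The values of the ovarian carcinoma markers and IRS4 go against the label of the COV318-MGP libraries as cells of the control line. Nothing measured here shows that these libraries are of COV318 cells. The names below are those of the labels, and each fold compares the libraries so labelled: an effect of MGP and a difference in cell identity cannot be told apart. In RNA from pooled cells fewer cells of a type and less RNA per cell cannot be told apart.

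Of 20339 genes, 18842 had more than 3 counts in at least 1 of the sphere libraries. A gene was called when its log2 fold change (log2FC, COV318-MGP over COV318-CTR on normalized counts plus 1) was at least 1 in size and its counting interval left out a ratio of 1. By this rule 4601 genes (24.4%) were called higher and 4652 (24.7%) lower in COV318-MGP OCSC. Nearly as many genes were thus called as not. Raising the size of log2FC required to 3 kept 1718 higher (9.12%) and 2019 lower genes (10.7%). The median log2FC was 0.0016 and the quartiles were -1.13 and 1.12. Control spheres held 1000 normalized counts or more of 4460 genes, of which 97 had 3 counts or fewer in COV318-MGP spheres, 64 of them 0. In the other direction this held for 28 of 4319 genes, 13 of them at 0.

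**Figure D1:**
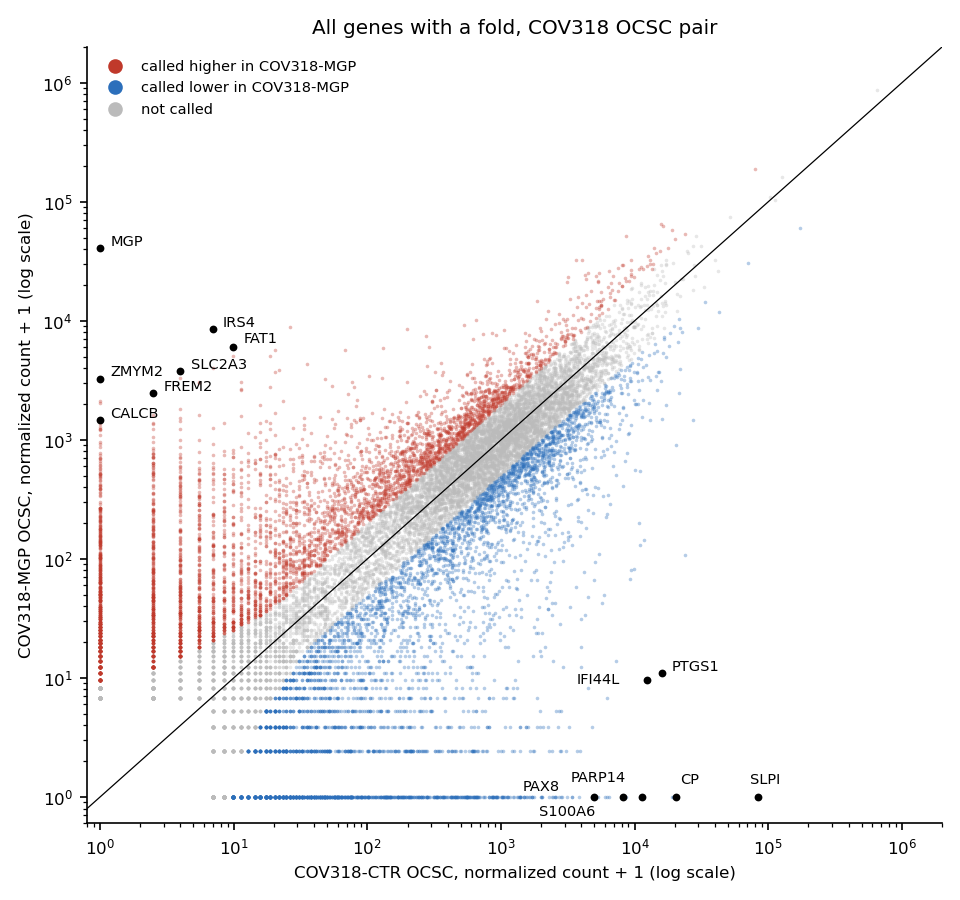
Normalized count plus 1 of each gene with a fold in COV318-CTR OCSC (x axis, log scale) and COV318-MGP OCSC (y axis, log scale), coloured by call, with the diagonal as equality and named genes in black; a few sex-linked genes are not drawn. Points along the left and lower edges are genes at 0 counts in 1 library, with MGP highest on the left edge and SLPI farthest right on the lower edge.

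The genes with the widest differences fell into recognisable kinds. SLPI, a secreted inhibitor of neutrophil elastase often abundant in ovarian carcinoma, had 0 counts in COV318-MGP OCSC and 56454 in COV318-CTR OCSC, at least 19535-fold lower. It had 0 and 76117 counts in the bulk pair, and 41421 and 32756 counts in OVCAR3-MGPKO and OVCAR3-CTR spheres. CP (ceruloplasmin, a copper-carrying ferroxidase) had 0 against 13632 counts. S100A6, a calcium-binding protein, had 0 against 5499, and CLDN16, a tight-junction protein, 0 against 4048. PTGS1, the constitutive cyclooxygenase, kept 7 counts against 10740. RIPOR3 (0 against 4180) and FLG (0 against 3229), the gene of the epidermal protein filaggrin, belonged to this set, as did MX1, PARP14, IFI44, IFI44L, MEST, DPPA4 and PAX8.

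On the other side, ZMYM2, a zinc finger protein of chromatin repressor complexes, had 2288 counts in COV318-MGP OCSC and 0 in COV318-CTR OCSC, at least 735-fold higher. CECR2, a chromatin remodelling subunit, had 1486 against 0 and MAN1A1, a Golgi mannosidase, 1433 against 0. Several genes of this set act at the cell surface or in the matrix. The giant cadherins FAT1 (4201 against 6 counts) and FAT3 (979 against 0), the basement membrane proteins FREM2 (1736 against 1) and NID1 (2797 against 4), and the proteoglycan GPC3 (2152 against 3) were all called higher. SLC2A3, a high-affinity glucose transporter, had 2635 against 2 counts, with a log2 interval of 8.46 to 13.36. FKBP10, a collagen chaperone, TUSC3, a subunit of oligosaccharyl transferase, HS6ST2, a heparan sulfate sulfotransferase, and CALCB, a calcitonin gene-related peptide, ranged from 952 to 3554 counts against 0 to 6. These 13 genes, IRS4 and MGP were called higher in the bulk pair too.

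The gene lists covered 35 pathways and families other than Hedgehog, WNT and angiogenesis. Since 24.4% of all genes were called higher and 24.7% lower, list counts are read against these shares, and a share near them is not a result about the members. In the plot of list members, the lists with the lowest medians were the interferon response, imprinted genes, the Müllerian lineage, cytokines and epithelial junctions. Those with the highest were the HOX genes, cancer-testis genes and cytosolic ribosomal proteins. The cancer-testis list had only 4 members with a fold.

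**Figure D2:**
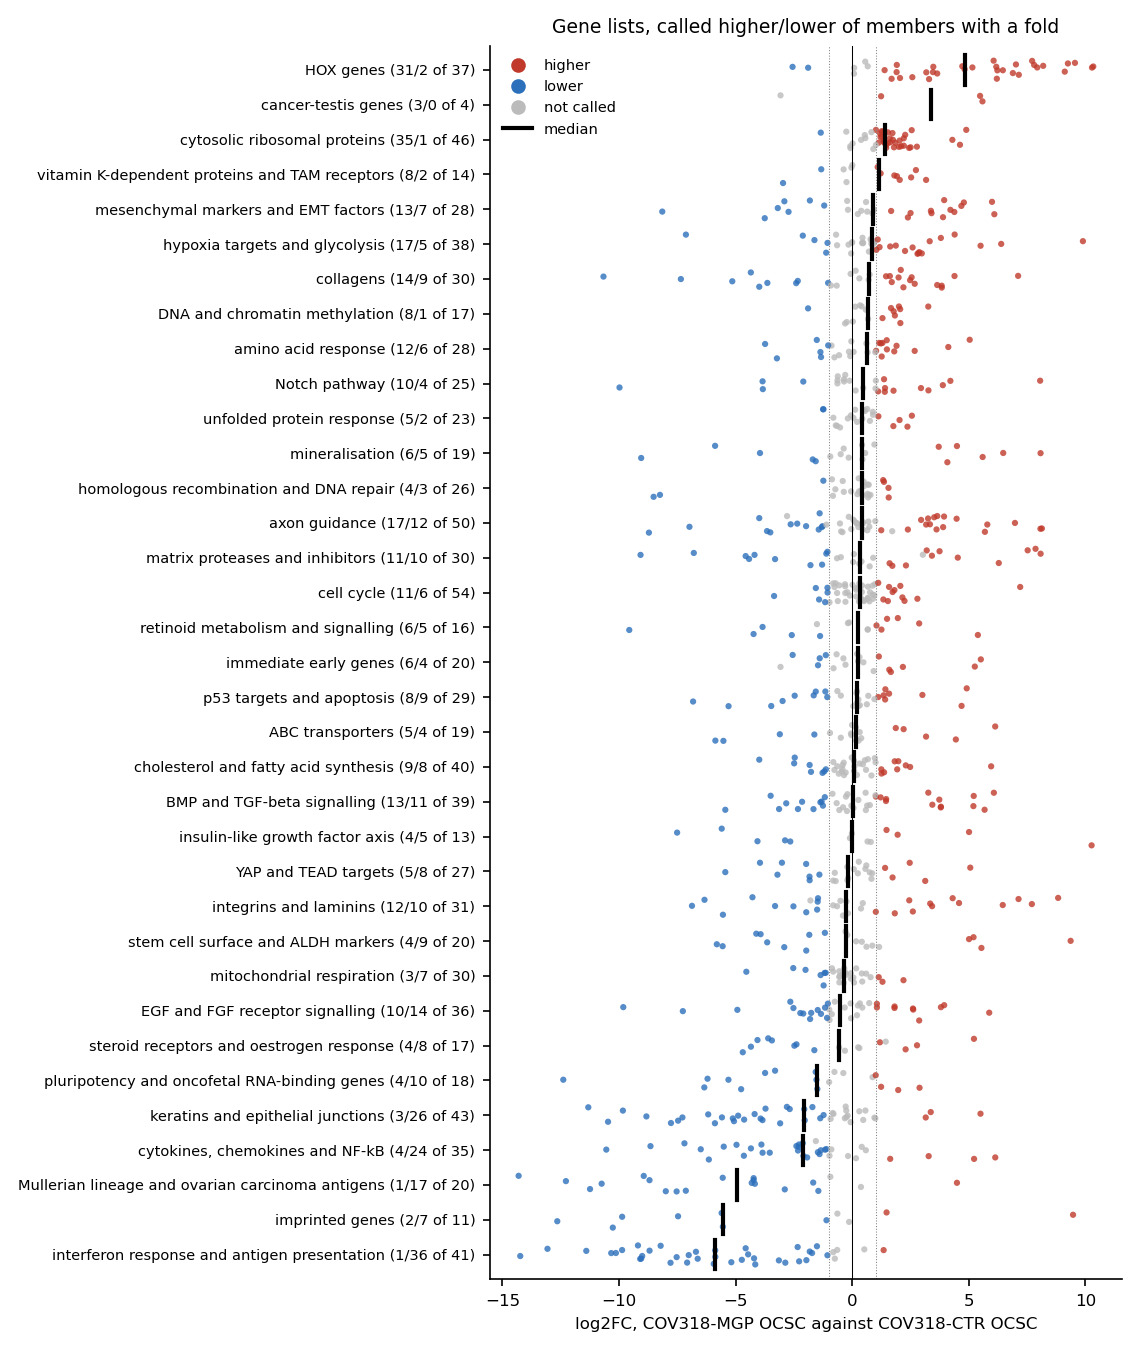
log2FC in the sphere pair of each member with a fold (x axis) for the 35 gene lists (rows, sorted by median, with called higher/lower of members in brackets); points are genes coloured by call, black bars are medians and dotted lines mark a log2FC of 1 in size. The interferon list lies furthest left with a median of -5.87 and the HOX genes furthest right with 4.82.

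Genes of the interferon response were lower in COV318-MGP spheres almost throughout. Interferons signal through JAK kinases and STAT factors to induce antiviral proteins and the machinery that presents antigen on HLA class I. Of 41 members with a fold 36 were called lower and 1 higher, beside 24.7% and 24.4% over all genes, and their median log2FC was -5.87. Among the stimulated genes 22 of 23 were called lower, with a median of -7.79, or -7.08 with genes at 0 set to their bound. MX1, a GTPase that blocks viral ribonucleoproteins, had 0 counts in COV318-MGP OCSC and 12992 in COV318-CTR OCSC, at least 4496-fold lower. IFI6, which restrains apoptosis, had 74 against 15955 counts and IFI44L 6 against 8337. IFI44 was at 0 against 5781. PARP14, an ADP-ribosyltransferase that is not in the list and was named for its wide difference, was at 0 against 7644 counts. The control spheres carried the high values in each case, and the OVCAR3 spheres held 27 to 158 counts of IFI44L, IFI44 and MX1.

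The transducers and the antigen presentation genes were lower to a lesser extent. Of 7 transducers 6 were called lower with a median of -2.34, and IFNGR1, a chain of the interferon gamma receptor, was not called (1346 against 906 counts, log2FC 0.52). Of 11 antigen presentation genes 8 were called lower with a median of -1.97. PSMB10, TAPBP and TAP2, of the proteasome and peptide-loading machinery, were not called, at 98 against 148, 9 against 15 and 5 against 9 counts. IFITM2 was the member called higher (162 against 61 counts, log2FC 1.35), and it shares near-identical sequence with its neighbours, so its reads could have been split. In the bulk pair 38 of 42 members were called lower and 1 higher.

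Promoters of the list were searched for a motif. The interferon-stimulated response element is bound by STAT and IRF factors, and its core letters, GAAA followed by any 2 bases and GAAA again, were searched on both strands in RefSeq promoter windows of GRCh38.p14, from 250 bases before to 50 after each start. The letters were found in 14 of 18 stimulated genes with a window (77.8%), 6 of 9 antigen presentation genes and 0 of 4 transducers, beside 4.38% of all 27305 genes with a window. Of the whole list 20 of 31 members held it. The list was written from genes known to be induced by interferon, so a high share of this motif follows from that choice. It says nothing about the difference between the COV318-MGP and COV318-CTR spheres. IFI35, OAS1, DDX58, XAF1, STAT2, IRF1, IFNAR1, HLA-B, HLA-C and CD74 were called lower without it, and IFNGR1 lacked it and was not called. TAP2, TAPBP and PSMB10 held it and were not called, while the other members that held it were called lower. Most members were thus called lower with the letters and without them. The genes given here were named after their values were seen. The 200 bases before the start of 3 genes are shown, each read in the direction of its gene, with matches on either strand in capitals. They lie at chr1:27672193-27672392 on the minus strand for IFI6, and on the plus strand at chr1:78620248-78620447 for IFI44L and chr1:78649589-78649788 for IFI44.
IFI6: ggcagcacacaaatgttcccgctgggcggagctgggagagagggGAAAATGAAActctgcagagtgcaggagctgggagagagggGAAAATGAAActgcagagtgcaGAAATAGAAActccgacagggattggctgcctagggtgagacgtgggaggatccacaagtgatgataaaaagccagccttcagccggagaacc
IFI44L: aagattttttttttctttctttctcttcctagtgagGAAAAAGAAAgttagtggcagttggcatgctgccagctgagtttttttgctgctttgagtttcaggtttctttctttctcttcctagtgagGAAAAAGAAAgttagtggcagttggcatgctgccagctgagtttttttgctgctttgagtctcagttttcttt
IFI44: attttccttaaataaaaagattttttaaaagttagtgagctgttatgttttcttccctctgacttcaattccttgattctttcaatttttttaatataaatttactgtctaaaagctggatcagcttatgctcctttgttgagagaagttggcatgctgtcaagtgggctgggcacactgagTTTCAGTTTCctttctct
IFI6 holds 3 matches, IFI44L 2 and IFI44 1. A match is a run of letters and not a measured binding site.

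Cytokine and NF-kB genes were mostly lower as well. Of 35 members 24 were called lower and 4 higher, with a median of -2.09 (-1.93 with genes at 0 at their bound). ICAM1, an adhesion receptor for leukocytes and a classical NF-kB target, had 0 counts against 1006. BIRC3, a ubiquitin ligase induced by NF-kB, had 23 against 1620, and NFKBIA, the inhibitor that retains NF-kB in the cytoplasm, 314 against 1520. The subunits RELA (607 against 390 counts, log2FC 0.58) and NFKB2 (476 against 520, -0.18) were not called. LIFR, the receptor of leukemia inhibitory factor, was called higher (1798 against 178 counts), as were CXCR4, a chemokine receptor (530 against 13), SOCS2, a feedback inhibitor of JAK signalling (194 against 2), and IL11 (56 against 17). STAT3 was lower with a log2FC of -1.35 (-1.45 to -1.25), and the shared receptor chain IL6ST was not called (0.16).

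The Müllerian and epithelial lists share genes with the marker check, MECOM, EPCAM, CDH1 and KRT18 among them, so their counts are not separate from it. The fallopian tube and ovarian surface share transcription factors and secreted antigens that are used to diagnose ovarian carcinoma. Of 20 members 17 were called lower and 1 higher, with a median of -4.93 (-4.67 at the bound). MECOM, a transcription factor gained in ovarian cancer, had 387 against 6746 counts (log2FC -4.18) and SPON1, a secreted matrix protein, 384 against 7349 (-4.31). GATA6 (428 against 318 counts, 0.37) and KLK6 (4 against 8) were not called, and LHX9, a gonadal homeobox gene, was called higher on 15 against 0 counts.

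Keratins and epithelial junctions had 26 of 43 members lower and 3 higher, with a median of -2.06. Cell-cell contacts of epithelia combine tight junctions, adherens junctions and desmosomes, and in spheres these did not move alike. The cadherin, EPCAM and tight junction genes had 10 of 14 lower and 0 higher, among them EPCAM (22 against 649 counts) and CDH1, E-cadherin (99 against 248, log2FC -1.37). F11R, a tight junction adhesion molecule, had 1823 against 7316 counts and PARD6B, a polarity protein, 351 against 4879. PPL, periplakin, which links keratin to desmosomes, was lower at 12 against 2675 counts. In bulk 5 of 8 desmosome genes were lower and 2 higher, with a median of -1.84, whereas in spheres 1 of 8 was lower and 1 higher. In spheres DSP (6393 against 7058 counts, -0.20), DSG2 (0.99) and DSC2 (0.47) were not called. KRT18 also missed the threshold at 4810 against 2396 counts (0.95, 0.88 to 1.02). PERP, a desmosomal tetraspan protein, was higher at 4118 against 87 counts.

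HOX genes showed the opposite pattern. These homeobox genes lie in 4 clusters and specify position along the body axis, with higher paralogue numbers acting more posteriorly. Of 37 members with a fold 31 were called higher in COV318-MGP OCSC and 2 lower, with a median of 4.82 (3.88 at the bound). All 9 HOXC genes were higher, with 7 to 200 counts against 0 to 2. HOXB9 had 2112 counts against 3, with a log2 interval of 7.86 to 11.68, and HOXD13 902 against 0, at least 290-fold higher. HOXB3 had 1004 against 98 counts and HOXA10, a gene of the Müllerian duct, 827 against 133. The HOXA cluster was also used by the control spheres, and its median was 2.05, compared with 7.14 for HOXB (5.64 at the bound) and 6.22 for HOXC (5.55 at the bound). HOXA7 (30 against 109 counts) and HOXD1 (4 against 26) were lower, and HOXD4, HOXB4, HOXB7 and HOXA2 were not called. In bulk 32 of 38 were higher and 1 lower. HOX genes overlap antisense transcripts, and it is not known whether counting used the strand.

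**Figure D3:**
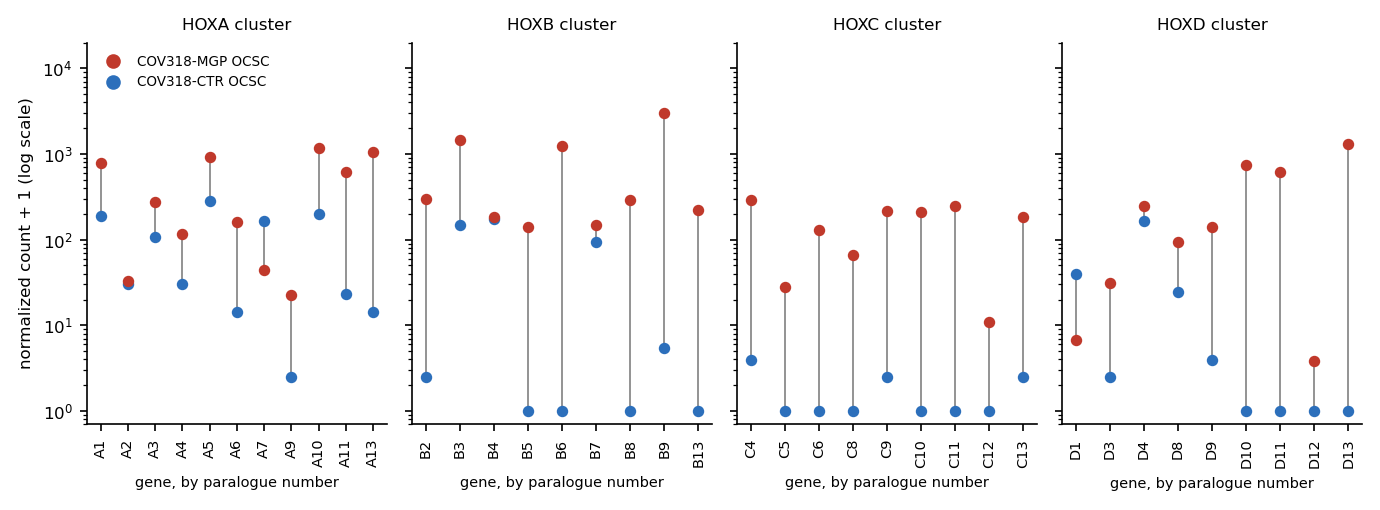
Normalized count plus 1 (y axis, log scale) of each HOX gene in the table in COV318-MGP OCSC and COV318-CTR OCSC, in 4 panels by cluster and ordered by paralogue number (x axis). Points of the control spheres lie at or near the lower edge in most of HOXB, HOXC and posterior HOXD and above it in much of HOXA, while HOXA7 and HOXD1 have the order of the libraries exchanged.

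Imprinted genes, which are controlled by methylation, were mostly lower. Cancer-testis genes, a class largely restricted to the germ line in normal tissue, had too few members with a fold to be read as a class. Of 11 imprinted genes 7 were called lower and 2 higher, with a median of -5.55 (-3.47 at the bound). MEST had 0 against 4323 counts, NDN 0 against 829 and PEG10, a retrotransposon-derived gene of the placenta, 9 against 1655. PLAGL1, a zinc finger regulator of the imprinted network, was at 494 against 0 and GRB10, an adaptor that restrains insulin signalling, at 1556 against 540. Of 4 cancer-testis genes with a fold 3 were higher, MAGEA3 (448 against 9 counts) and MAGEA6 (232 against 4), which are nearly identical in sequence, and LIN28B (1770 against 723). LIN28B is an oncofetal RNA-binding gene and was also counted among the HEK293 markers above. Apart from it the higher calls rest on MAGEA3 and MAGEA6, whose reads could be shared. In bulk 3 of 7 members of this list were higher and 2 lower, with a median of 0.29.

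Pluripotency and oncofetal genes were lower in 10 of 18 cases (55.6%, beside 24.7% of all genes) and higher in 4. With a mean of at least 50 normalized counts only 5 were lower, and the median went from -1.52 to -0.76. DPPA4, a chromatin protein of pluripotent cells, had 0 counts against 3614 and MYCN 13 against 358. KLF4 was higher (204 against 26), MYC was not called (336 against 422, log2FC -0.38), and SALL4 was not called (0.87). Of the oncofetal genes HMGA1 (1716 against 421) was higher while its relative HMGA2 (1314 against 3571) and IGF2BP3 (1375 against 3842) were lower. Among enzymes of DNA and chromatin methylation 8 of 17 were higher and 1 lower. DNMT1, which copies methylation after replication, had 4192 against 1643 counts (1.30), TET1, which oxidises methylcytosine, 1647 against 165 (3.26) and the de novo methyltransferase DNMT3A 629 against 2254 (-1.89). EZH2, SUZ12 and EED, the core of Polycomb complex PRC2, were not called, with log2FC of 0.58, -0.31 and 0.13.

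Markers that the field uses for stem-like cells were more often called lower than higher. Aldehyde dehydrogenases and a few surface proteins are used to sort such cells. Of 20 members 4 were higher (20.0%) and 9 lower (45.0%), beside 24.4% and 24.7% of all genes, with a median of -0.25. KIT, the stem cell factor receptor, had 460 counts in COV318-MGP OCSC and 0 in COV318-CTR OCSC, at least 148-fold higher, and 1351 against 1 in bulk. CD44 had 25 counts against 0. PROCR, the protein C receptor, had 418 against 8 and the mitochondrial folate enzyme ALDH1L2 590 against 17. LGR5, an R-spondin receptor, was lower at 106 against 1287 counts and so was its relative LGR4 (1377 against 2992), whereas in bulk their log2FC were 0.53 and 0.40. The tetraspanin CD9 had 615 against 4473 counts. ALDH1A2, ALDH7A1, ALDH2 and ALDH3A2 were not called, with log2FC between -0.29 and 0.61.

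Mesenchymal genes were more often higher than lower, 13 against 7 of 28, with a median of 0.90. The higher share was 46.4%, beside 24.4% of all genes, and the lower share was near that of all genes. The surplus of higher calls lay in the transcription factors given below. Of 11 cytoskeleton and adhesion genes 4 were higher and 4 lower, and of 8 secreted matrix genes 3 were higher and 3 lower. In the bulk pair the balance of the whole list was the other way, 9 higher and 11 lower with a median of -0.11. Epithelial to mesenchymal transition is driven by a small set of repressors that switch cells toward vimentin and fibronectin. Of 9 such transcription factors 6 were higher and 0 lower. SNAI2 (110 against 1 counts), TWIST2 (47 against 0) and ZEB2 (609 against 56), named here after their values were seen, were among them, ZEB1 was not called (768 against 406, log2FC 0.86) and FOXC1 was higher (1.67). VIM, vimentin, had 15748 counts in COV318-MGP OCSC and 2901 in COV318-CTR OCSC, a log2FC of 2.39 (2.33 to 2.44), but 24774 against 21874 in bulk (0.21). FN1, fibronectin, had 5450 against 497 counts in spheres and 5650 against 24788 in bulk. Once scaled, the control spheres held 739 normalized counts of FN1 and 4311 of VIM against 13351 and 11782 in control bulk cells, whereas the MGP spheres held more of both than MGP bulk cells. VCAN, versican, was higher in both pairs (5260 against 183 counts in spheres). NCAM1, TNC, THBS1 and MYL9 were lower, MYL9 at 0 against 190 counts, and CDH2, N-cadherin, was not called (0.59).

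Matrix genes and their receptors were called in both directions. Collagens had 14 of 30 higher (46.7%) and 9 lower (30.0%), beside 24.4% and 24.7% of all genes, and 9 higher with a mean of at least 50 normalized counts. The basement membrane chains COL4A1 (1407 against 6845 counts, log2FC -2.34) and COL4A2 (1393 against 7107, -2.40), which share a promoter and pair in 1 trimer, were lower together, and COL18A1 was lower as well (-3.64). COL4A6 (683 against 112, 2.55), COL14A1 (791 against 235), COL6A2 and COL5A2 were higher. COL11A1 had 0 counts against 1094, and COL3A1 was not called (586 against 346) although its bulk log2FC was -3.60.

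Integrin alpha and beta chains, which pair to bind matrix, differed in the number of calls. Of 13 alpha chains 8 were called higher (61.5%) and 3 lower (23.1%). Of 7 beta chains 0 were higher and 4 lower (57.1%), beside 24.4% and 24.7% of all genes. Summed normalized counts were lower in COV318-MGP OCSC for both kinds, at 10813 against 18718 for alpha and 4996 against 19729 for beta chains. ITGA5, the fibronectin receptor chain, had 971 against 10 counts (6.45) and ITGA7, a laminin receptor chain, 653 against 58. ITGB8, which activates latent TGF-beta, was at 101 against 7909 (-6.34), ITGAV at 2997 against 8200 and ITGA6 at 921 against 3483. ITGB1, the common partner, was not called (2884 against 3155, -0.18). The laminin chain LAMA4 was higher (1116 against 7) and LAMC1 lower (5680 against 15294).

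Matrix proteases and inhibitors had 11 of 30 higher (36.7%) and 10 lower (33.3%). TIMP1, an inhibitor of metalloproteases, had 1849 against 7 counts (7.86, 6.95 to 9.31) while TIMP2 had 329 against 686. PLAT, tissue plasminogen activator, was at 2609 against 13 and SERPINE2, a serine protease inhibitor, at 539 against 6. ADAMTS1, which cleaves versican, was at 5485 against 577, and the membrane-bound collagenase MMP14 at 33 against 592.

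Genes close to the function of MGP were read separately. Carboxylation of Gla proteins needs GGCX and reduced vitamin K from VKORC1, and other Gla proteins, PROS1 and GAS6, activate the receptors TYRO3, AXL and MERTK. Of 14 members 8 were higher and 2 lower. VKORC1 had 1065 counts in COV318-MGP OCSC and 293 in COV318-CTR OCSC (log2FC 1.81), whereas GGCX was not called (987 against 1128, -0.25). PROS1 was at 565 against 60 (3.17) and GAS6 at 162 against 160 (-0.04). All 3 receptors were called higher, TYRO3 at 766 against 195 and, named after their values were seen, MERTK at 362 against 60 and AXL at 49 against 11. NQO1, which can reduce vitamin K, was lower (154 against 1165).

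Mineralisation genes gave 6 of 19 higher (31.6%) and 5 lower (26.3%), near the 24.4% and 24.7% of all genes. SPARC, a collagen-binding protein of bone, had 3548 against 12 counts (8.08, 7.35 to 9.11), BMP2 555 against 31 and its target MSX2 246 against 2. SPP1, osteopontin, had 2 against 1378 and IBSP 0 against 39. Inhibitors of mineral deposition had 3 of 5 lower and 0 higher, including ANKH, an exporter linked to pyrophosphate (357 against 1114), and NT5E (15 against 234). These are too few to set against the shares of all genes, and in bulk 3 of 6 were lower and 2 higher. In BMP and TGF-beta signalling 13 of 39 were higher (33.3%) and 11 lower (28.2%), again near all genes. With a mean of at least 50 normalized counts 7 were higher, and the median went from 0.05 to -0.21. The BMP target ID2 (1.22) and the BMP signal transducer SMAD9 (870 against 22 counts) were higher, BMP7 (555 against 4710, -3.14), TGFBR2 (215 against 1478) and TGFBR3 (769 against 1909) lower, and TGFBR1 and BMPR2 not called. ACVR1B stood at the threshold with 1.01 and lost its call under 3 other scalings.

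The sphere medium contains EGF and FGF2. EGF and FGF act through receptor kinases and ERK, which induces its own inhibitors. Of 36 members 10 were higher (27.8%) and 14 lower (38.9%), beside 24.4% and 24.7% of all genes, with a median of -0.54, and ERK output genes were lower in 7 of 13 and higher in 2. FGFR1 (900 against 2420 counts) and FGFR3 (475 against 2631) were lower and FGFR2 (776 against 359) higher. ERBB4 was lower (66 against 1953) and ERBB2 was not called (954 against 732, 0.33). ETV5, an ERK-induced factor, was lower (-2.23), DUSP5, an ERK phosphatase, higher (1.82), and SPRY2 not called (-0.07).

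The insulin-like growth factor axis had 4 of 13 members higher (30.8%) and 5 lower (38.5%), with a median of -0.02. The shares of all genes were 24.4% and 24.7%. IRS4 and IGF1R (2763 against 960 counts, 1.47) were higher, while 4 of 6 ligands and receptors were not called. Of 7 binding proteins 5 were lower and 2 higher, with a median of -2.88. IGFBP7 had 27 against 1291 counts, IGFBP2 334 against 2033 and IGFBP5 the reverse, 356 against 10. Notch, which signals between touching cells, had 10 of 25 members higher and 4 lower. Its target HEY1 had 2121 against 7 counts (8.06) and its DNA-binding factor RBPJ 2721 against 768 (1.77). The ligand JAG1 was lower (238 against 3278, -3.83), the receptor NOTCH2 (-0.63) and the target HES1 (-0.62) were not called, and NOTCH3 was higher (1.40). DTX4, a ubiquitin ligase of the pathway, had 0 counts against 679.

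Axon guidance genes, which steer migrating cells through contact and secreted cues, were higher in 17 of 50 (34.0%) and lower in 12 (24%), beside 24.4% and 24.7% of all genes. The receptor ROBO1 had 3983 against 13 counts (8.13) and its ligand SLIT2 2583 against 217 (3.52). Both were higher in bulk too, by 8.76 and 3.21. The ephrin receptor EPHA7 was higher (744 against 92) and EPHA2 lower (301 against 1811), and the plexins PLXNB1 (279 against 3390) and PLXNA4 (23 against 2882) were lower. In the retinoid list 6 of 16 were higher (37.5%) and 5 lower (31.2%). The receptors RARB and RARG were higher and CRABP2, which carries retinoic acid to the nucleus, lower (118 against 2147), with the carrier RBP4 at 0 against 508.

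Steroid receptor and oestrogen response genes were higher in 4 of 17 (23.5%) and lower in 8 (47.1%), beside 24.4% and 24.7% of all genes. CCND1, cyclin D1, had 272 against 2861 counts (-3.45). SLC7A2 (876 against 4428), CA12 (72 against 851) and ESRRG (157 against 468) were lower in spheres, whereas their log2FC in bulk were 1.30, 1.51 and 0.94. GREB1, an oestrogen receptor cofactor, was higher (2.29), and PGR, the progesterone receptor, was at 64 against 1 counts. ESR1 had 1 and 2 counts, under the floor in both libraries.

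Cytosolic ribosomal protein genes were higher together. Of 46 members 35 were called higher and 1 lower, with a median of 1.42, whereas in bulk 7 were higher, 4 lower and the median was 0.09. RPS4X had 45080 counts in COV318-MGP OCSC and 10626 in COV318-CTR OCSC (2.03, 2.00 to 2.06), RPL4 40905 against 12755 (1.63) and RPS6 33941 against 13575 (1.27). RPL37A (0.82), RPL5 (0.90), RPS12 (0.54) and RPL11 (0.02) were not called. RPL39L, a testis-enriched relative of RPL39, was the lower member (204 against 502). These genes have many processed pseudogenes, so reads may have been lost or split.

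Hypoxia and glycolysis genes were higher in 17 of 38 and lower in 5, with a median of 0.86 against -0.18 in bulk. LDHA, which makes lactate, had 16277 against 2138 counts (2.87, 2.81 to 2.94), DDIT4, an inhibitor of mTORC1 induced by stress, 4240 against 194 (4.39) and P4HA1, a collagen prolyl hydroxylase, 3361 against 1437 (1.17). SLC2A3 has been given above, while SLC2A1, the other main glucose transporter of tumor cells, was lower (599 against 1253, -1.12). HIF1A itself was lower (1486 against 4404, -1.62), as was SLC16A3, a lactate exporter, at 1 against 229. GAPDH, ENO1, PKM and PGK1 were not called (0.45, -0.69, 0.72 and 0.47). LDHB, at 1.03, lost its call under scaling by total count.

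Mitochondrial respiration genes of the nucleus gave 3 of 30 higher (10.0%) and 7 lower (23.3%), with a median of -0.36. The lower share was near that of all genes. UQCRFS1, of complex III, was lower (946 against 5266, -2.53), SDHB and NDUFB5 were lower too, and ATP5F1A and ATP5F1B were not called. Cholesterol and fatty acid synthesis had 9 of 40 higher (22.5%) and 8 lower (20.0%), near the 24.4% and 24.7% of all genes. SCD, the desaturase of stearate, had 17583 against 3032 counts (2.48), SQLE, an early oxygenase of sterol synthesis, 4829 against 1222 (1.93), and INSIG1, a sterol sensor, 6704 against 1827 (1.82). The fatty acid desaturase FADS1 (1826 against 9892) and the sterol demethylase CYP51A1 were lower, and HMGCS1 was not called (0.09).

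Genes of the amino acid response, under the factor ATF4, were higher in 12 of 28 and lower in 6. ATF4 itself had 10179 against 3516 counts (1.48), SHMT2, a mitochondrial serine enzyme, 3881 against 1072 (1.80) and ATF3 6418 against 355 (4.12). PSAT1, of serine synthesis (1252 against 3460), CEBPB (99 against 1280) and DDIT3 (377 against 936) were lower. In the unfolded protein response 5 of 23 were higher (21.7%) and 2 lower (8.7%), no more than the 24.4% and 24.7% of all genes. The chaperone HSPA5 (BiP) had 15213 against 3592 counts (2.03), and in bulk its log2FC was 0.72. PPP1R15A, which reverses the translation block, was higher (2.56) and CALR lower (9975 against 22610, -1.23).

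In the cell cycle list the phases differed. Of 18 genes of S phase 9 were higher and 0 lower, with a median of 1.03, whereas 1 of 20 mitosis genes was higher and 2 were lower, with a median of 0.08. The replicative helicase genes MCM4 (7184 against 2084 counts, 1.73) and MCM2 (1.33), RRM1 (1.81) and CDC6 (1.12) were higher, and MCM7, MCM3, TOP2A and CENPF were not called (0.94, 0.89, 0.30 and -0.82). CDK6 (2069 against 5886, -1.56) and E2F1 (-1.42) were lower, as were the spindle genes TPX2 and AURKA. Repair genes gave 4 of 26 higher (15.4%) and 3 lower (11.5%), smaller shares than the 24.4% and 24.7% of all genes. FANCI, FANCD2, XRCC2 and BRIP1, of crosslink repair and recombination, were higher by 1.33 to 1.56, and MGMT, which removes alkyl groups from guanine, was at 0 against 246 counts. PALB2 was lower (-1.24).

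Among p53 targets 7 of 16 were higher and 1 lower, whereas 8 of 13 genes of the BCL2 and inhibitor families were lower and 1 higher. PMAIP1 (NOXA) had 2319 against 86 counts (4.69) and TNFRSF10B, a TRAIL receptor, 1569 against 568 (1.41). BCL2L1, which encodes the survival protein BCL-XL, was lower (227 against 1738, -2.99), as were BCL2L11 (-1.56) and CASP4 (10 against 1168). MCL1 (0.05), XIAP (0.63) and MDM2 (0.95) were not called. Of 19 ABC transporters, which export drugs and lipids, 5 were higher (26.3%) and 4 lower (21.1%), near the shares of all genes. ABCB1, the multidrug transporter, had 308 against 13 counts (4.44) but 428 against 982 in bulk (-1.16), and ABCG2 had 108 against 11 (3.17).

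The bulk pair, which shares no library with the sphere pair, was set beside these values. Of 19682 genes with a fold in bulk 4613 (23.4%) were called higher and 4974 (25.3%) lower, and 1766 (8.97%) and 1958 (9.95%) with a log2FC of 3 or more in size. Genes called higher in both cultures numbered 3030, 65.9% of the sphere calls and 65.7% of the bulk calls, and 3215 were lower in both, 69.1% and 64.6%. Across 18721 genes Pearson's r of the log2FC in both cultures was 0.879, as a description of 4 libraries. The difference between cultures was at least 1 with a counting interval without 0 for 4288 genes, 2243 of them larger in spheres. Lists with opposite signs of their medians in spheres and bulk included the immediate early genes (0.23 and -2.78), hypoxia and glycolysis, and steroid receptors (-0.56 and 0.70).

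**Figure D4:**
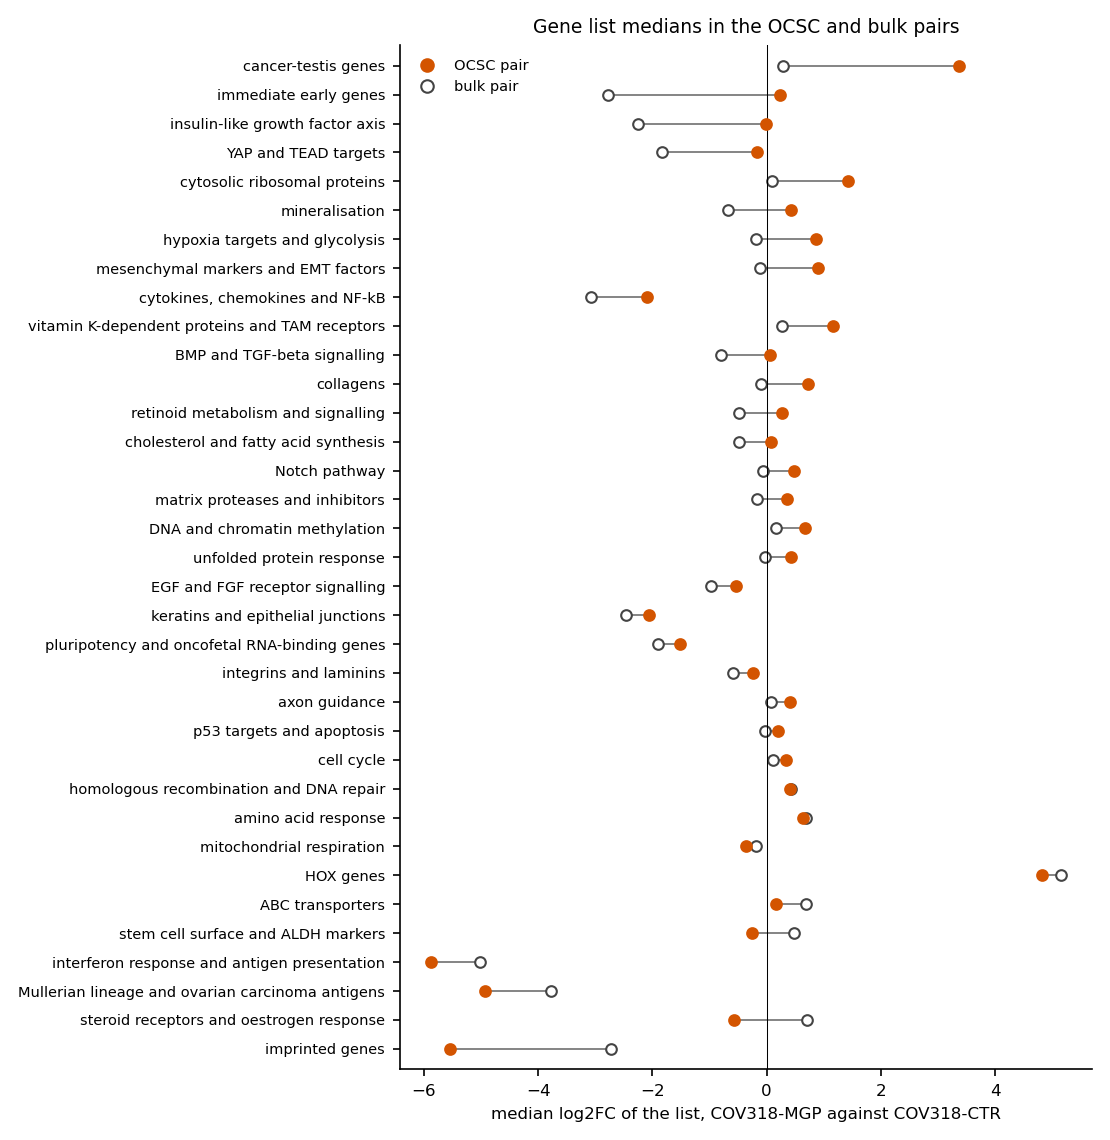
Median log2FC of each of the 35 gene lists (rows) in the sphere pair (filled points) and the bulk pair (open points), ordered by the difference between both (x axis in log2 units; COV318-MGP against COV318-CTR). The HOX and interferon lists lie far from 0 in both pairs, whereas immediate early genes, YAP and TEAD targets and ribosomal proteins lie near 0 in 1 pair only.

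Genes that respond within minutes to serum, strain or attachment stood out in this setting. Immediate early genes encode AP-1 and related factors, and YAP with TEAD drives genes that respond to a stiff substrate. In spheres 6 of 20 immediate early genes were called higher (30.0%) and 4 lower (20.0%), near the shares of all genes. In bulk, however, 2 of 21 were higher and 15 lower. FOS had 569 counts in COV318-MGP OCSC, 1443 in COV318-CTR OCSC, 63 in COV318-MGP bulk and 11225 in COV318-CTR bulk. Its log2FC was -1.40 in spheres and -7.41 in bulk. JUN was higher in spheres (3503 against 1070 counts) and not called in bulk (-0.14), and NR4A1 was higher in both (5.51 and 2.16). Of the YAP and TEAD list 5 of 27 were higher (18.5%) and 8 lower (29.6%) in spheres, compared with 1 higher and 17 lower in bulk. CCN1, a matrix protein and YAP target, had 1564 against 454 counts in spheres and 448 against 11811 in bulk. YAP1 (-1.41 and -2.49) and AMOTL2 (-1.98 and -5.28) were lower in both, and AMOTL1 was higher in both (5.06 and 3.54).

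Called directions were opposite in the cultures for 165 genes, 87 of them with at least 50 normalized counts in the higher library of each pair. Of the 165, 91 were higher in spheres and lower in bulk and 74 the reverse. ANKRD1, a YAP target of muscle and stressed cells, had the widest gap. It had 853 normalized counts in COV318-MGP OCSC and 96.6 in COV318-CTR OCSC, a log2FC of 3.13 (2.77 to 3.54), and in bulk its log2FC was -6.73. PIM1, a survival kinase, had 2153 against 133 counts in spheres (3.96) and 1074 against 4468 in bulk (-2.02). GADD45B, a stress-induced gene, JUNB, CSRNP1, CPA4, a carboxypeptidase, and GFRA1, a receptor of glial cell line-derived neurotrophic factor, had the same order. All 8 genes that the naming rule picked were higher in the MGP spheres and lower in the MGP bulk cells, the order of the 91.

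**Figure D5:**
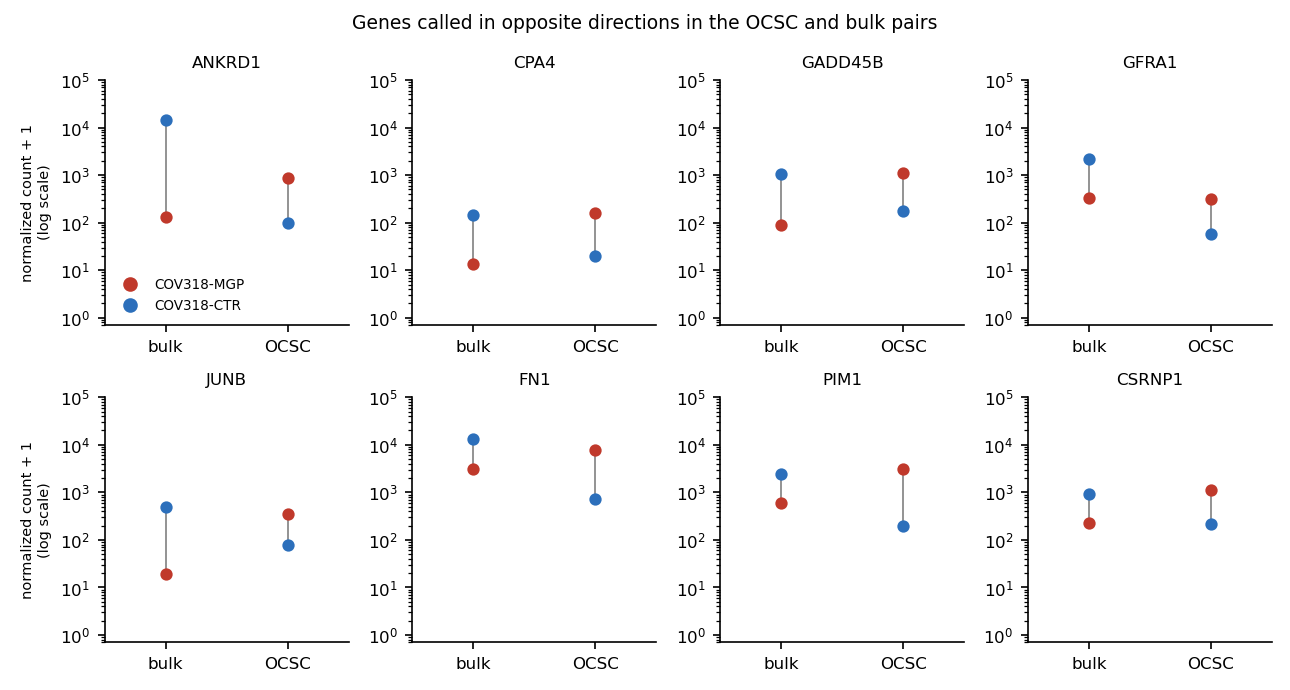
Normalized count plus 1 (y axis, log scale) in the bulk and OCSC libraries (x axis) of COV318-MGP and COV318-CTR, 1 point a library, for the 8 named genes called in opposite directions. In each panel the control lies above MGP in bulk and below it in OCSC, and ANKRD1 spans the widest range.

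Calls were also uneven along the genome. On chromosome 20, which carries SLPI and WFDC2, 12.4% of 510 genes were called higher and 44.5% lower, with a median log2FC of -0.94. Chromosome 22 gave 42.1% higher and 13.6% lower of 425 genes, with a median of 0.78, and chromosome X 41.1% and 17.6% of 613, with 0.74. Chromosomes 1 and 7 were next on the lower side, with medians of -0.45 and -0.44. The calls of list members given above were not separated from these differences between chromosomes.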

How the data were processed

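RNA was sequenced from 8 libraries, 1 per condition; the 2 COV318 sphere libraries were compared, with the bulk pair beside them. The authors aligned paired reads to hg38 with STAR (version 2.7.5c in the submitters' processing notes) and deposited raw read counts per gene for 20339 genes. They also deposited a normalized signal per library, the count divided by the DESeq2 size factor. Several TruSeq kits are named, and which served these libraries, the annotation and the strand setting of the counting are not given in the sources used here.

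From the counts, median-of-ratios factors were recomputed over 15518 genes and differed from the deposited normalized signal by at most 4.9e-10 in relative terms. They were 0.699 for COV318-MGP OCSC and 0.673 for COV318-CTR OCSC. log2FC is the difference of log2(normalized count + 1). Genes with at most 3 counts in both libraries got no fold. A call required a log2FC of 1 in size and an exact Clopper-Pearson 95% interval without a ratio of 1. The floor of 3 counts was 0.226 and 0.244 CPM in the 2 sphere libraries. No p-value was computed, as each group has 1 library. Differences between cultures carry normal 95% intervals from the 4 counts plus 0.5.

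Gene lists and markers were written from general knowledge, and members and lists were chosen with earlier results of these data known. The genes named are MGP; the 15 protein-coding genes per direction with the largest interval bound nearest no change at 1000 normalized counts or more; of each list, up to 4 called members per direction and 4 not called with the most counts; 8 genes opposite in both cultures; and the markers. Others are marked as named after their values were seen, and a few genes the rule names are not reported here. In all, 19252 symbols matched RefSeq genes of GRCh38.p14, and promoters came from RefSeq. The alternatives were TMM factors (edgeR 4.0.16 in R 4.3.3), total count, factors within the pair, pseudocounts of 0.5 and 5, a mean of at least 50, log2FC thresholds of 2 and 3, no interval, and thinning to 12294591 counts. The functions were tested on simulated data. Scripts ran in Python 3.11.15 (matplotlib 3.10.9, scipy 1.17.1, pandas 2.3.3, numpy 2.4.6).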

Additional observations from a re-analysis of the deposited data

Results flagged for a closer look

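The 8 named genes called in opposite directions in spheres and bulk cells were marked because the COV318-MGP and COV318-CTR libraries change order between the cultures. With 1 library on each side the difference was not tested, and its intervals cover counting error only. The log2FC in spheres minus that in bulk was 9.87 for ANKRD1 (9.46 to 10.28), 6.46 for CPA4, 6.22 for GADD45B and 5.11 for GFRA1. It was 6.93 for JUNB, 5.50 for FN1 (5.36 to 5.64), 5.98 for PIM1 and 4.38 for CSRNP1. ANKRD1 fell from 26258 counts in control bulk cells to 65 in control spheres, whereas COV318-MGP had 241 and 596.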

How the results depend on the processing

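No paired analysis was possible because each group holds 1 library, and for the same reason no library could be left out. The counts of 4601 higher and 4652 lower genes were within 1.5 times under TMM factors, total count, factors within the pair, both pseudocounts, a threshold without interval and thinning. They moved to 2973 and 2947 with a mean of at least 50 normalized counts, which tests fewer genes, to 2617 and 2835 with a log2FC threshold of 2, and to 1718 and 2019 with 3. Scaling by total count shifted the median log2FC of all genes to -0.053. In the bulk pair, with scalings chosen after seeing the data, the counts ran from 4613 to 5698 higher and 4166 to 4974 lower. No log2FC of a called named gene changed sign under the 6 alternatives run on single genes. Of 312 called named genes, 4 lost their call with TMM (ACVR1B, ALDH18A1, IGF2BP1 and LAMA3), 7 with total count (also CYP26A1, LDHB and PDGFRB), and 3 with factors within the pair, while IL6R and KLF5 became lower calls with TMM and total count. Counts called in the lists stayed within 1.5 times in all 70 cases under the 3 scalings and in 64 of 70 with a mean of at least 50, the exceptions being lower calls of mineralisation (3), HOX (1) and pluripotency genes (5) and higher calls of BMP and TGF-beta (7), Müllerian (0) and collagen genes (9). The list medians moved in 13 of 35 lists with that filter and in 8 with a pseudocount of 5. With the filter they went to -3.33 for imprinted, 0.61 for vitamin K, 0.31 for collagen, -0.76 for pluripotency, -7.33 for Müllerian and 6.19 for HOX genes, and that of BMP and TGF-beta genes turned from 0.05 to -0.21. At these depths a gene listed at 0 may still be present below the floor of 3 counts, and biological spread between cultures cannot be estimated.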
